A study of Mus musculus with 24 samples.

Results

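The opioid system was followed through 7 genes of 54235 in the gene lists: the peptide precursors Penk, Pdyn and Pnoc, and the receptors Oprm1 (mu), Oprd1 (delta), Oprk1 (kappa) and Oprl1 (nociceptin receptor). They were chosen by symbol, and all 7 symbols were found. The data were single-cell RNA counts from mouse primary motor cortex and dorsal striatum around a forelimb reaching task. Cortex came from Fos-CreER::Ai9 mice and striatum from Arc-CreER::Ai9 mice, lines in which 4-OHT lets the activity-dependent Cre switch on a red reporter in recently active cells, so region and driver line cannot be told apart. Control mice received 4-OHT without training, early mice were trained for 2 days and late mice for 8 days, and tissue was taken 3 days after labelling. Each pool joined 2 mice, a male and a female, split by hemisphere, which gave 2 pools for each region and stage, 12 pools in all, and the pool was the replicate.

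Opioid peptides are cut out of large precursor proteins by prohormone convertases and are released from dense-core vesicles. Enkephalins from Penk act mainly on delta and mu receptors, dynorphins from Pdyn on kappa receptors, and nociceptin from Pnoc on the nociceptin receptor. All 4 receptors couple to inhibitory G proteins, which lower cyclic AMP, open potassium channels and close presynaptic calcium channels. In the striatum, Penk is a classical marker of indirect-pathway spiny neurons, which carry the dopamine receptor Drd2, and Pdyn of direct-pathway spiny neurons, which carry Drd1. Striosomes, patches within the striatum, are known for dense mu receptor binding.

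The precursors differ in the peptide units they encode, and these short stretches are shown because they set which peptide the counted messenger RNA can yield. They were read from the GENCODE transcripts for GRCm38, 5′ to 3′, with the codons of the peptide core in capitals and 6 flanking bases on each side in lower case. A search of the coding sequence found 6 Met-enkephalin cores and 1 Leu-enkephalin core in Penk, 3 Leu-enkephalin cores in Pdyn and 1 start of nociceptin in Pnoc.
Penk, Met-enkephalin, bases 632 to 646 of transcript Penk-201: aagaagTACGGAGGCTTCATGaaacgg
Penk, Leu-enkephalin, bases 1025 to 1039 of Penk-201: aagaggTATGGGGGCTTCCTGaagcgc
Pdyn, Leu-enkephalin, bases 807 to 821 of Pdyn-201: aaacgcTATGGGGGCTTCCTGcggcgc
Pnoc, start of nociceptin, bases 780 to 791 of Pnoc-201: aaaaggTTTGGGGGCTTCaccggg
The Penk and Pdyn lines each end in a pair of codons for basic residues, the usual cleavage signal. The Pnoc core opens with the codon TTT and the enkephalin cores with TAC or TAT.

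In GRCm38, Penk lies at chr4:4133531-4138819 on the minus strand and overlaps A830012C17Rik on the other strand. Pdyn lies at chr2:129686565-129699844 (minus) and Pnoc at chr14:65400673-65425472 (minus). Oprm1 lies at chr10:6758506-7038198 (plus) and overlaps Gm10945 and Ipcef1 on the other strand. Oprd1 lies at chr4:132110726-132144486 (minus), Oprk1 at chr1:5588466-5606131 (plus) and Oprl1 at chr2:181715016-181720985 (plus). All 7 are protein-coding genes in the annotation. Levels are given in CPM, the UMIs (distinct counted molecules) of a gene per 1000000 UMIs of the same cells, and they are compared between cell classes for one gene and not between genes.

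Of 24 libraries, 23 had counts, with 5260446 to 30470621 UMIs each, and 98612 cells were kept with library medians of 2048 to 5725 UMIs. Cell classes were rebuilt by clustering without the 7 genes, and every class name below means that the cluster is like that type by its marker genes. The labels name 2 versions of the library kit without giving the version of each library. Shared cell barcodes split the pools in 2 kit classes: replicate 1 of control and of late in each region formed class 1 (4 pools), and the other 8 pools formed class 2. The 28 library pairs within class 1 shared 2226 barcodes, the 120 pairs within class 2 shared 715 and the 128 pairs between classes 112. Per 1000000 barcode pairs, single library pairs shared 0.789 to 1.75 within class 1, 0.0360 to 0.565 within class 2 and 0 to 0.437 between classes, so the split is inferred, and pairs within class 2 overlapped with those between classes. Class 1 also held all pools of 2 of the 6 batches in the labels, and class 2 those of the other 4, so kit and batch cannot be told apart. Control 1 of the striatum, a class 1 pool, rests on its left hemisphere alone. No early pool was in class 1, and the 2 class 1 pools of the striatum stood apart in Penk and Oprm1, so values that rest on them are given by pool.

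**Figure D1:**
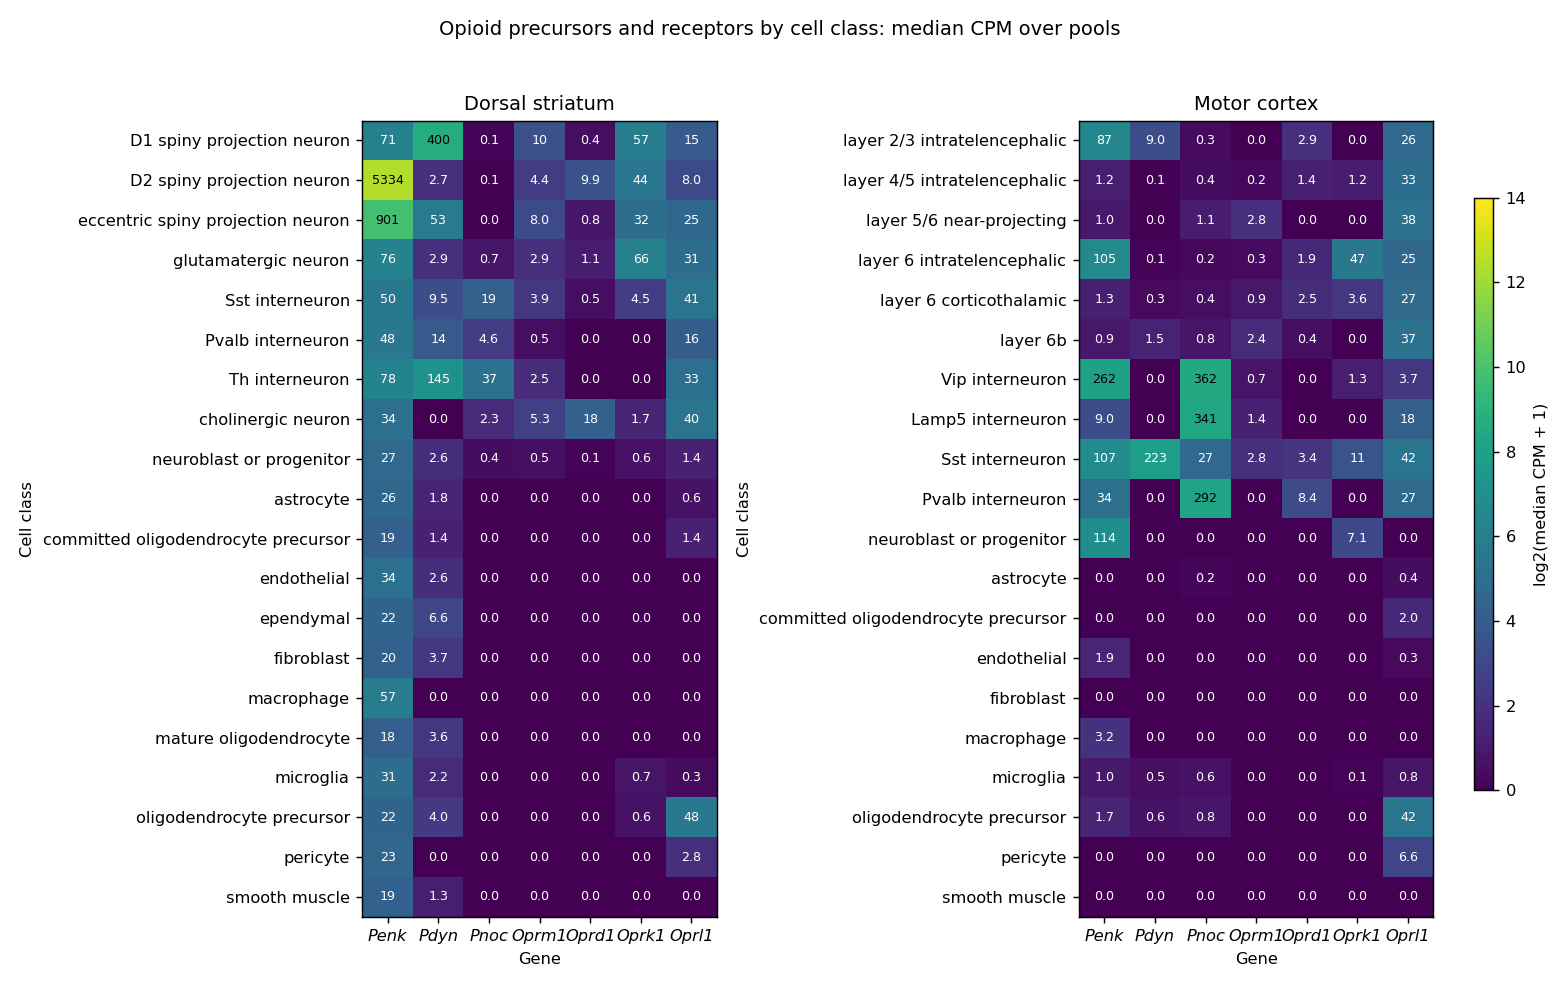
Median CPM over pools of each of the 7 genes (columns) in each named cell class (rows) of the dorsal striatum and motor cortex, on a log2(CPM + 1) colour scale. Penk peaks in D2 spiny neurons (5334 CPM), Pdyn in D1 spiny neurons (400 CPM) and cortical Sst interneurons (223 CPM), and Pnoc in cortical Vip, Lamp5 and Pvalb interneurons (362, 341 and 292 CPM).

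Among the precursors in the striatum, Penk was concentrated in D2 spiny neurons. The level over 6 pools was 5025 CPM at the lowest, 5334 at the median and 11789 at the highest. The 2 pools of kit class 1 read 8955 (control 1) and 11789 (late 1), and the 4 of class 2 lay between 5025 and 5433. Eccentric spiny neurons, a further type marked here by Otof and Casz1, followed with 828, 901 and 1096 CPM over 4 pools and did not overlap with D2 cells or with the next named class. Below them, the Th interneurons (29.8, 77.7 and 171 CPM), D1 spiny neurons (62.8, 71.4 and 333 CPM), Sst interneurons (31.1, 50.3 and 84.5 CPM) and Pvalb interneurons (33.0, 48.5 and 249 CPM) overlapped with their neighbours in the order. Striatal microglia, which should lack Penk, read 18.6, 31.0 and 345 CPM, so levels of this size are not read as expression. Striatal fibroblasts, with 38 to 56 cells in a pool, read 1535 CPM in control 1 and 411 in late 1, and 0 to 22.2 in the 4 pools of class 2. The 9 spiny neuron markers summed to 2621 and 2455 CPM in those 2 fibroblast pools and to 444 to 941 in the other 4, and their part in the Penk level was not tested. In D1 cells the class 1 pools again stood apart, with 162 CPM in control 1 and 333 in late 1 against 62.8 to 75.0 in the other 4.

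Among named classes of the striatum, Pdyn had 3 steps with no overlap between neighbours. D1 spiny neurons held 285, 400 and 437 CPM (lowest, median and highest of 6 pools), Th interneurons 109, 145 and 184, and eccentric spiny neurons 24.1, 52.5 and 72.4 in 4 pools. Pvalb (median 13.9 CPM) and Sst interneurons (9.49 CPM) came next. D2 cells read 1.08, 2.65 and 7.84 CPM, so the D1 and D2 ranges were far apart.

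Pnoc was low in both spiny neuron types, with 5 UMIs in 8517 D1 cells and 4 UMIs in 9714 D2 cells. It was found in Th interneurons at 18.6, 37.3 and 44.6 CPM and in Sst interneurons at 11.7, 18.5 and 22.9 CPM, and these 2 classes overlapped. A small Lamp5-like cluster of 55 striatal cells, led by Vip, Cck and Lamp5 and without 20 cells in any pool, read 301 CPM of Pnoc with all cells summed.

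In motor cortex Pdyn and Pnoc were highest in interneurons, and Penk was found in both interneurons and projection neurons. Among named classes, Penk was highest in Vip interneurons, at 164, 262 and 423 CPM over 6 pools, with no overlap with the next class. Sst interneurons (74.9, 107 and 157 CPM), layer 6 intratelencephalic neurons (74.7, 105 and 137 CPM) and layer 2/3 neurons (66.9, 87.2 and 101 CPM) overlapped with each other, as did a small neuroblast-like class of 147 cells (0, 114 and 139 CPM in 4 pools). Pvalb interneurons (3.04, 34.4 and 61.7 CPM) lay below layer 2/3 with no overlap. Layer 4/5 and layer 6 corticothalamic neurons had medians of 1.23 and 1.34 CPM.

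Cortical Pdyn was almost confined, among the 20 named cortical classes with levels in at least 4 pools, to Sst interneurons. They held 83.5, 223 and 327 CPM over 6 pools. Layer 2/3 neurons followed with 4.70, 9.02 and 17.3 CPM, and neither overlapped with its next neighbour. No Pdyn UMI was found in 1355 Vip interneurons, which allows up to 0.335 CPM, or in 290 Pvalb interneurons, which allows up to 1.01 CPM (3 counts, counting error only).

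Cortical Pnoc marked the other interneurons. Vip (210, 362 and 414 CPM), Lamp5 (232, 341 and 439 CPM) and Pvalb interneurons (81.8, 292 and 349 CPM) overlapped with each other, and none overlapped with Sst interneurons (22.1, 26.6 and 47.2 CPM). The next class, the near-projecting neurons, had a median of 1.08 CPM. The Vip class thus held both Penk and Pnoc, and the Sst class held Penk, Pdyn and a low level of Pnoc.

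**Figure D2:**
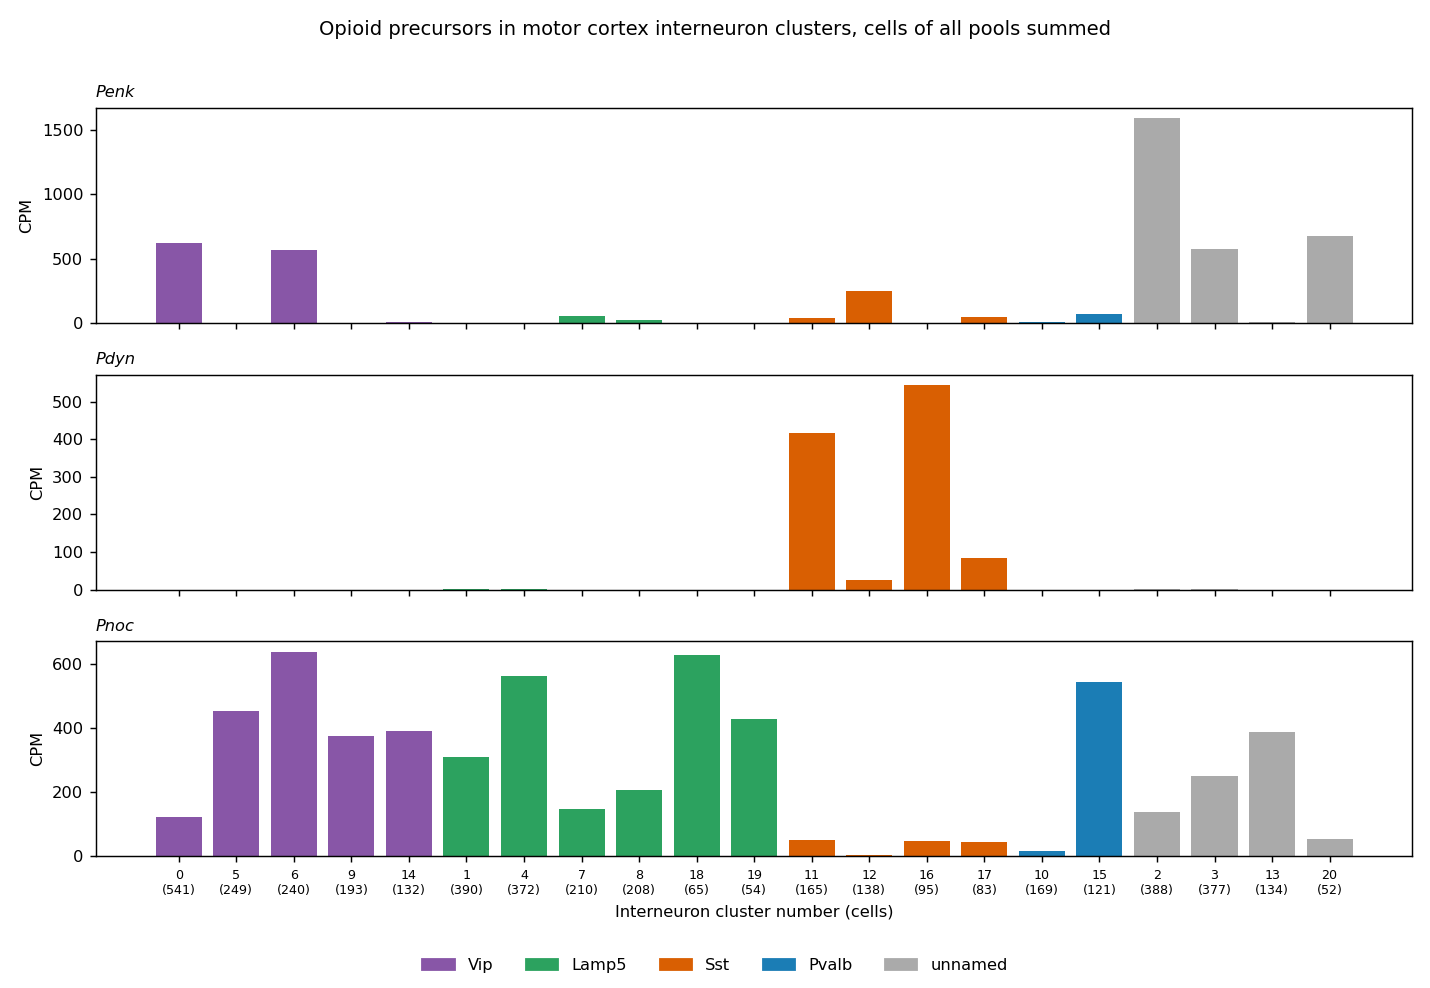
Penk, Pdyn and Pnoc (CPM, linear axes from 0, all cells of a cluster summed) in the clusters of motor cortex interneurons, coloured by class, with the number of cells below each. Penk reached 1588 CPM in unnamed cluster 2, Pdyn 545 CPM in Sst cluster 16 and Pnoc 639 CPM in Vip cluster 6.

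Within these classes single clusters differed widely, and their levels are a description with no test. Cluster 2 of the cortical interneurons (388 cells, led by Igfbp6, Cxcl12, Nptx2 and Calb2, and left unnamed) had 1588 CPM of Penk. Among Vip clusters, cluster 0 had 619 CPM and cluster 6 had 568 CPM, while cluster 5 had 2.0 CPM and cluster 9 had 1.2 CPM. Cluster 6 also had the highest Pnoc of the Vip clusters at 639 CPM, so the 2 precursors were high together in it and apart in cluster 5, where Pnoc was 455 CPM.

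The Sst class split between Pdyn and Penk. Cluster 11 (165 cells, led by myosin heavy chain genes) had 418 CPM of Pdyn and cluster 16 (95 cells, led by Cbln4) had 545 CPM. Cluster 12 (138 cells, led by Chodl and Nos1, as in long-range projecting Sst cells) had 25.4 CPM of Pdyn and 250 CPM of Penk. With cells thinned to 2000 UMIs, none of 79 Sst cells with a Pdyn UMI had a Penk UMI, against 15.1% of those without Pdyn.

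Pnoc split the Pvalb class. Cluster 15 (121 cells, led by Th and Spp1) had 546 CPM and cluster 10 (169 cells, led by Pvalb and Syt2) had 17.3 CPM. In the Pvalb class late 1 was low, at 81.8 CPM against 248 to 349 CPM in the other 5 pools, and the part of the mix of the 2 clusters in it was not tested.

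The receptors followed other lines. Oprk1 in the striatum ran in steps with no overlap: D1 spiny neurons had 51.5, 56.9 and 63.7 CPM, D2 spiny neurons 35.7, 44.2 and 50.9, eccentric spiny neurons 27.3, 32.0 and 34.3 (4 pools), and Sst interneurons 1.52, 4.49 and 8.47. A striatal glutamatergic class (221 cells in 4 pools) spanned 11.1 to 122 CPM and overlapped with the D1 cells. In cortex Oprk1 was highest in layer 6 intratelencephalic neurons at 35.8, 47.3 and 59.1 CPM, with no overlap with Sst interneurons (7.62, 11.4 and 13.4 CPM). A cluster of 88 cortical glutamatergic cells, led by Synpr and carrying Car3 and Gnb4 among its leading genes, had 285 CPM of Oprk1, but only 1 pool held 20 of its cells.

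Oprm1 was low everywhere, so few UMIs stand behind its levels. In D1 spiny neurons the 6 pools gave 2.65 and 2.11 CPM in kit class 1 (8 and 14 UMIs) and 9.58 to 11.2 CPM in class 2 (74 to 117 UMIs). D2 cells showed the same division, with 2.12 and 1.22 CPM in class 1 and 4.32 to 6.20 CPM in class 2. Eccentric spiny neurons (5.56, 8.01 and 16.9 CPM) and cholinergic interneurons (0, 5.31 and 7.27 CPM) overlapped with the D1 cells. In cortex the near-projecting neurons had 1.58, 2.79 and 6.82 CPM, and Sst interneurons and layer 6b overlapped with them.

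Oprd1 was found in cholinergic interneurons at 8.73, 18.2 and 31.5 CPM and in D2 spiny neurons at 4.84 CPM in the lowest pool and 9.95 at the median. These overlapped, and D1 cells lay far below at 0.130, 0.415 and 0.632 CPM, from 19 UMIs in 8517 cells. In cortex Pvalb interneurons had 2.64, 8.45 and 11.4 CPM and overlapped with Sst interneurons at a median of 3.36 CPM. The cholinergic level rested on 71 UMIs in 230 cells.

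Oprl1 was the most widely spread receptor and the one found in a glial class. Oligodendrocyte precursors held 30.1, 47.7 and 55.2 CPM in striatum and 27.1, 41.6 and 53.5 CPM in cortex. Committed precursors, the next step of the lineage, had medians of 1.44 CPM in striatum and 1.99 in cortex, and microglia 0.307 and 0.751. Among neurons, Sst interneurons had 31.9, 40.9 and 50.3 CPM in striatum and 35.3, 41.8 and 48.7 in cortex, and cholinergic neurons 28.1, 40.3 and 66.2. D1 cells (12.2, 15.4 and 18.0 CPM) did not overlap with D2 cells (6.35, 7.97 and 10.4 CPM). All cortical projection classes with 6 pools had medians of 25.1 to 38.3 CPM, while cortical Vip interneurons had 8.1 CPM or less in each of their 5 clusters.

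Shares of cells with at least 1 UMI depend on depth and on free RNA. In D1 cells (median 5781 UMIs) the share with Penk was 13.8% at the median of the pools, and 7.18% after thinning to 2000 UMIs. In striatal microglia (median 1948 UMIs), which should lack the gene, it was 4.23% and 4.53%. The share of D1 cells with Pdyn was 65.0%, and 47.4% thinned, against 0.323% and 0.288% in microglia. For Oprm1 the D1 share was 5.57%, and 1.85% thinned, against 2 of 4993 microglia as counted. With thinned cells of all pools together, 58.7% of D1 cells with an Oprm1 UMI had Pdyn against 45.8% of those without, and within D2 cells all 169 with an Oprd1 UMI had Penk against 98.4% of those without.

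To test the receptor-defined pathways directly, spiny neurons with UMIs of Drd1 alone (7662 cells) were compared with those of Drd2 alone (8324 cells) within pools, a split that used none of the 7 genes. Of 6 members that passed the filter on low counts, 6 were called (edgeR, adjusted p under 0.05), beside 28.5% of all genes tested. Pdyn and Oprd1 were high in one group alone and passed the filter through it, so nothing is read from the count, and the sizes are given by pool. Pnoc, with 10 and 4 UMIs, did not pass the filter. As a check of the split, the D1 markers Tac1, Isl1 and Eya1 were higher in Drd1 cells and the D2 markers Adora2a, Gpr6 and Sp9 lower; Drd1 and Drd2 themselves defined the cells.

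**Figure D3:**
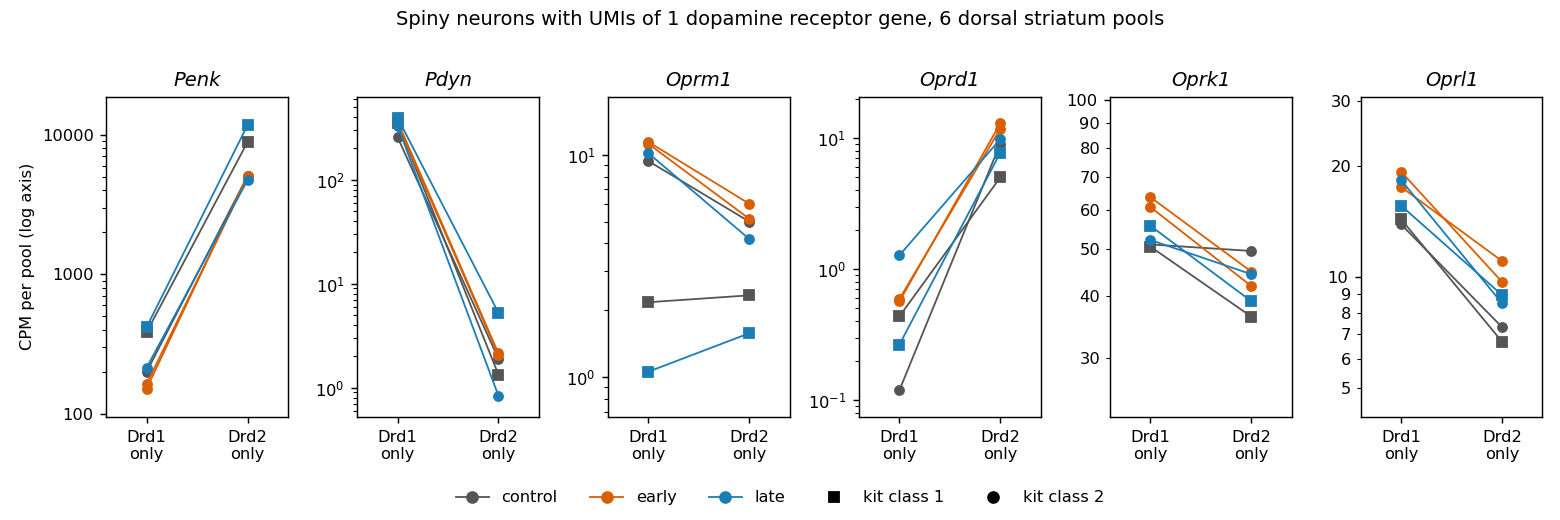
CPM per pool (log axes) of the members in spiny neurons with UMIs of Drd1 alone or Drd2 alone, with a line joining the 2 values of each of 6 pools, coloured by stage and with the kit class as the symbol. Penk and Oprd1 lie higher in Drd2 cells and Pdyn, Oprk1 and Oprl1 higher in Drd1 cells in 6 of 6 pools, and Oprm1 crosses in the 2 pools of kit class 1.

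Pdyn was 256, 348 and 394 CPM (lowest, median and highest pool) in Drd1 cells and 0.837, 1.98 and 5.26 in Drd2 cells. The groups were far apart in 6 of 6 pools. A pool held 4 to 30 UMIs of Pdyn in Drd2 cells, and Pdyn passed the filter through the Drd1 cells, so no fold is given. Penk was 152, 208 and 419 CPM in Drd1 cells and 4734, 5072 and 11699 in Drd2 cells, lower in Drd1 cells in 6 of 6 pools (log2 fold change -4.80, SE 0.04, adjusted p = 7.67e-62). Cells of D1 clusters read 62.8, 71.4 and 333 CPM, so the size of the fold depends on which cells are counted.

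Of the receptors, Oprd1, the delta receptor, was low in Drd1 cells. It was 0.119, 0.501 and 1.27 CPM in Drd1 cells and 5.01, 9.44 and 12.9 in Drd2 cells, lower in Drd1 cells in 6 of 6 pools. A pool held 1 to 10 UMIs of it in Drd1 cells and 15 to 114 in Drd2 cells, the group through which it passed the filter, so no fold is given. Oprl1 was 13.9, 16.6 and 19.3 CPM against 6.67, 8.71 and 11.1, also without overlap (log2 fold change 0.87, SE 0.09, adjusted p = 2.08e-11). Oprk1, the receptor for dynorphin, was higher in the Drd1 cells that carry Pdyn by a smaller step, at 50.5, 53.8 and 63.6 CPM against 36.4, 43.2 and 49.4 (0.32, SE 0.05, adjusted p = 1.80e-06, 6 of 6 pools).

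Oprm1 was 1.06, 9.78 and 11.4 CPM in Drd1 cells and 1.58, 4.60 and 6.03 in Drd2 cells (log2 fold change 0.93, SE 0.13, adjusted p = 7.10e-08). The 4 pools of kit class 2 ran 9.38 to 11.4 against 4.18 to 6.03. In the class 1 pools it was the other way, 2.18 against 2.34 CPM in control 1 and 1.06 against 1.58 in late 1, on 5 and 4 Drd1-cell UMIs.

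Of 26 tested genes of the 5 pathway lists, 15 were called in the same comparison, beside 28.5% of all genes, and the median log2 fold change over all genes was -0.01. Of 5 tested G protein genes, 3 rose in Drd1 cells, among them Gnai1 (1.19, SE 0.04) and Gnaz (0.64, SE 0.04), and Gnao1 fell (-0.34, SE 0.02). Of 6 tested effectors, the potassium channel subunit Kcnj3 rose (1.93, SE 0.10) and the adenylyl cyclase Adcy1 fell (-0.44, SE 0.05). Of 5 tested receptor regulators, 3 rose, led by the receptor kinase Grk2 (0.43, SE 0.07), and the arrestin Arrb1 (-0.24, SE 0.04) and Rgs9 (-0.08, SE 0.02) fell. Of the 5 processing genes, Scg5 (-0.11, SE 0.02) and the convertase Pcsk2 (-0.07, SE 0.02) fell, and of 5 tested peptidases, Npepps (0.09, SE 0.03) rose and Ece1 (-0.18, SE 0.05) fell. Median log2 fold changes of these 5 lists lay between -0.04 and 0.25.

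Striosomes were approached with 4 marker genes, Kremen1, Sema5b, Lypd1 and Bach2. Spiny neurons with UMIs of at least 2 of them (3164 cells) were compared with those with none (10700 cells) within pools. The marker cells were deeper, with 6456 against 4196 UMIs per cell, and the 4 matrix markers Id4, Epha4, Gda and Crym all fell in them (median log2 fold change -1.40 against 0.00 for all genes). Of 15 member tests in 3 sets of cells, 12 were called. Of all genes tested, 38.5% were called over all spiny neurons, 32.4% in Drd1-only cells and 25.4% in Drd2-only cells, so a call alone says little here and the sizes matter.

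As counted, Oprm1 was higher in marker cells. Among Drd1-only cells (1626 against 3392) it was 2.54, 13.8 and 19.7 CPM with markers and 0, 3.90 and 7.59 without, higher in 6 of 6 pools (log2 fold change 1.51, SE 0.21, adjusted p = 3.34e-08). With cells thinned to 2000 UMIs, where 371 Drd1-only marker cells held 9 UMIs of Oprm1 and 3249 without markers 57, it had too few UMIs to be tested and was higher in 3 of 6 pools and lower in 3. Over all thinned spiny neurons (14 and 136 UMIs) it was higher in 2 and lower in 4. In Drd2-only cells (1040 against 4405) it was too low to test, at medians of 3.80 and 4.83 CPM. Pdyn also rose in Drd1-only marker cells, at a median of 361 CPM with markers and 269 without, in 6 of 6 pools (0.49, SE 0.06, adjusted p = 1.88e-10). Oprk1 fell there, with medians of 60.7 CPM without and 42.5 with markers (-0.54, SE 0.10, adjusted p = 5.89e-06), lower in 5 of 6 pools, but was not called with cells thinned to 2000 UMIs (-0.61, adjusted p = 0.15).

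Penk went opposite ways in the 2 receptor classes. Among Drd1-only cells it was 268, 322 and 728 CPM with markers and 56.6, 93.9 and 295 without (log2 fold change 1.86, SE 0.09, adjusted p = 2.45e-26, higher in 6 of 6 pools). Among Drd2-only cells it was 2738, 3667 and 7099 CPM with markers and 5726, 5988 and 13037 without (-0.84, SE 0.04, adjusted p = 4.72e-35, lower in 6 of 6 pools). Markers of the other receptor class moved in these cells too: the D2 marker Sp9 rose in Drd1-only marker cells (3.69, SE 0.18) and the D1 marker Tac1 in Drd2-only marker cells (2.81, SE 0.09), while the other 3 D2 or D1 markers, the receptor left out by the split among them, had too few UMIs there to be tested. Their part in the result was not tested. The rise of Penk in Drd1-only cells depended on which cells were counted, and was 1.16 in 5 of 6 pools with thinned cells. When D1 clusters replaced Drd1 UMIs, a choice made after seeing the data that leaves out eccentric and unnamed spiny neurons, Penk was 31.9, 90.2 and 195 CPM with markers and 45.5, 72.0 and 328 without (0.04, adjusted p = 0.84). Within D2 clusters the medians were 4190 and 6106 CPM.

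**Figure D4:**
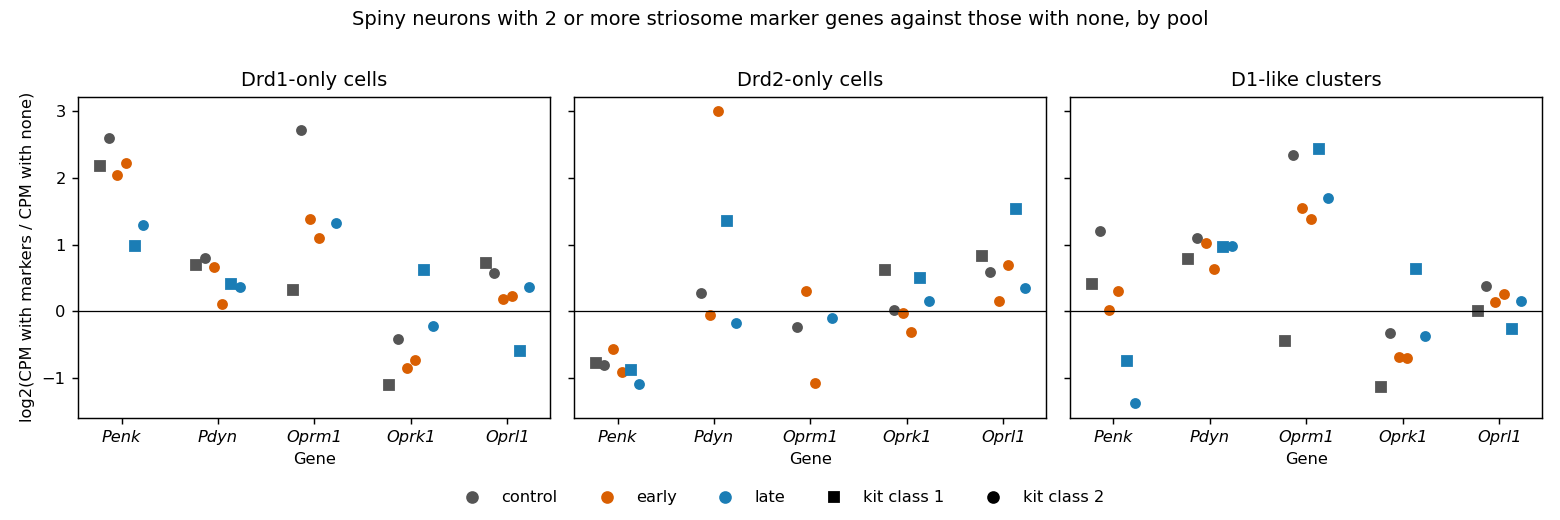
log2 ratio of CPM in spiny neurons with at least 2 striosome marker genes to CPM in those with none, 1 point per pool, for Drd1-only cells, Drd2-only cells and cells of D1 clusters; points where either value is 0 are not drawn. The Penk points lie above 0 in Drd1-only cells in 6 of 6 pools and on both sides of 0 in D1 clusters, while Oprm1 lies above 0 in each pool drawn for Drd1-only cells and in 5 of 6 pools for D1 clusters.

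In D1 clusters, where marker cells were deeper too (6612 against 4502 UMIs per cell) and no thinned split was run, Oprm1 and Pdyn were higher with markers in 5 and 6 of 6 pools, with medians of 16.6 against 4.52 CPM for Oprm1 and 516 against 279 CPM for Pdyn. D1 cluster 3 (2122 cells, led by Baalc, Isl1 and Tac1) had 22.0 CPM of Oprm1 and 546 of Pdyn with all cells summed, while the other 3 D1 clusters had 1.3 to 4.8 CPM of Oprm1. An unnamed spiny neuron cluster of 238 cells, led by Gabrg1 and Cartpt, carried several members at once: 3133 CPM of Penk, 641 of Pdyn, 137 of Oprk1 and 21.9 of Oprm1. These cluster levels are a description, and they sum the cells of all pools, whose Oprm1 level differed by kit class. Over all spiny neurons, without regard to receptor class, Oprl1 rose with the markers (0.51, SE 0.11, adjusted p = 0.000211; with thinned cells 0.75, adjusted p = 0.059, higher in 6 of 6 pools on 37 UMIs in marker cells) and Oprd1 fell as counted (-0.79, SE 0.20, adjusted p = 0.000911, lower in 6 of 6 pools). With thinned cells Oprd1 had too few UMIs to be tested (11 with markers and 142 without) and was higher in 2 pools and lower in 4. There 3 of 4 D1 markers also rose (median log2 fold change of the list 0.38) and 3 of 4 D2 markers fell (-0.43), and the part of the mix of D1 and D2 cells was not tested. The call for Oprl1 within Drd2-only cells (0.57, SE 0.22, adjusted p = 0.042) was lost without any 1 of 5 of the pools (adjusted p = 0.056 to 0.15).

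Training stage was then tested in each class with at least 20 cells in every pool, with the kit class as a covariate, so the sign of a fold change can differ from that of the plain means. In motor cortex 28 of 126 member and class pairs passed the filter for each contrast, and edgeR called none, with 4 at an unadjusted p under 0.05 for early and 4 for late against control, and 2 for late against early. DESeq2 also called 0. Of all genes over the 18 classes, 0.0125%, 0.0231% and 0.00771% were called in these 3 contrasts. Counts were simulated from the levels of striatal D1 spiny neurons, with no kit effect and 1 assumed spread for all genes. Only genes above a floor of expected counts were changed. The test found 66% of genes changed by 1 on the log2 scale and 97% of those changed by 2. The spread was not estimated from these pools, so the shares hold for that assumption alone. No cortical class was simulated, so these shares say nothing on what could be found in cortex.

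**Figure D5:**
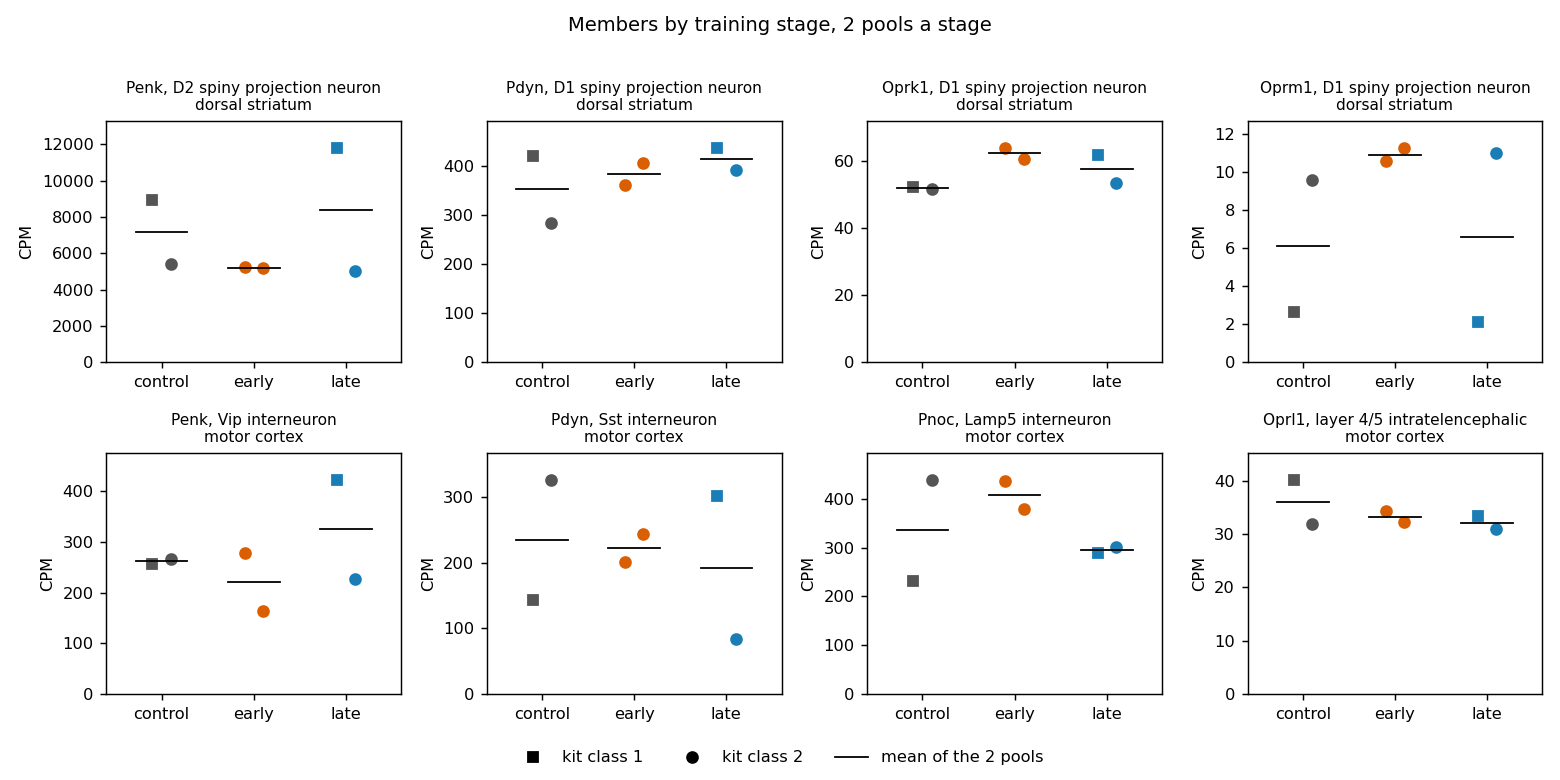
CPM (linear axes from 0) of members in the classes where they are high, by stage, with 1 point for each of 2 pools, the kit class as the symbol and a bar at the mean. In D1 cells Oprm1 was 2.65 and 9.58 CPM in control, 10.6 and 11.2 in early and 2.11 and 11.0 in late. The lower pool of control and of late was of kit class 1, and no early pool was. No stage contrast was called for Oprk1 or Oprm1 in these cells. In D2 cells the 2 class 1 pools held the highest Penk.

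Pdyn in cortical Sst interneurons was 144 and 327 CPM in control, 201 and 244 in early and 301 and 83.5 in late (early against control -0.02, SE 0.34; late against control -0.37, SE 0.36). Penk in Vip interneurons was 257 and 267 CPM in control, 279 and 164 in early and 423 and 227 in late (0.02, SE 0.27; 0.30, SE 0.25). The 2 pools of 1 stage differed by more than the stage means in both.

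Pnoc in Lamp5 interneurons was 232 and 439 CPM in control, 436 and 380 in early and 289 and 301 in late (0.14, SE 0.22; -0.10, SE 0.21). Oprk1 in layer 6 intratelencephalic neurons was 52.8 and 41.4 CPM in control, 43.3 and 51.3 in early and 35.8 and 59.1 in late (-0.03, SE 0.26; 0.07, SE 0.23). The lowest adjusted p in cortex, 0.76, was for Penk in Pvalb interneurons, at 37.1 and 3.04 CPM in control, 61.7 and 51.2 in early and 28.6 and 31.7 in late (early against control 2.65, SE 0.62). With any 1 of control 1, early 2, late 1 or late 2 left out, that log2 fold change was 2.77 to 4.20. All these fits keep control 2, which held only 2 UMIs in 51 cells, while control 1, at 37.1 CPM, lay nearer to the early pools. The fits without control 2 or early 1 are not given. Pnoc in the same class was 323 and 303 CPM in control, 349 and 248 in early and 81.8 and 280 in late. Late against control was not called over 6 pools (-0.85, SE 0.34, adjusted p = 1.0). The fold change was -1.89 without control 2 and -1.90 without late 2, and both of these fits keep late 1, the pool with the lowest level.

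In striatum 37 of 112 pairs passed the filter, and 0.0888%, 0.0376% and 0.0383% of all genes were called over 16 classes for early and for late against control and for late against early, in this order. The spiny neuron members were not called. Penk in D2 cells was 8955 and 5433 CPM in control, 5234 and 5205 in early and 11789 and 5025 in late. Both early pools lay below both control pools, while the fold changes adjusted for the kit class were 0.09 (SE 0.17) in early and 0.18 (SE 0.15) in late. Pdyn in D1 cells was 421 and 285 CPM in control, 361 and 407 in early and 437 and 392 in late (0.34, SE 0.14, adjusted p = 1.0; 0.29, SE 0.13, adjusted p = 0.82). Control 2, at 285 CPM, lay below the other 5 pools. Oprk1 in D1 cells (0.32, SE 0.14) and Oprd1 in D2 cells (0.51, SE 0.23) were also not called in early against control. Penk in D1 cells was 162 and 75.0 CPM in control, 62.8 and 67.8 in early and 333 and 64.6 in late. Here too both early pools lay below both control pools, and the adjusted fold changes were 0.10 (SE 0.26) in early and 0.46 (SE 0.24, adjusted p = 0.82) in late. Without control 2 the fold changes were 1.10 in early and 1.09 in late, and without late 2 that of late was 1.10. With control 2 left out, the only control pool was of kit class 1 and both early pools were of class 2. The early value of 1.10 then rests on the kit difference between late 1 and late 2. As measured, both early pools lay below control 1.

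Further contrasts were not called over 6 pools, and their fold changes are given with 1 pool left out. Pdyn in D2 cells, at 1.08 to 7.84 CPM, had a fold change of 3.70 in early against control without control 2, against 0.24 over 6 pools. The 3.70 rests on the kit difference between late 1 (7.84 CPM) and late 2 (1.08 CPM), since control 1 was of kit class 1 and both early pools of class 2. In cholinergic neurons Penk was 19.1 and 12.4 CPM in control, 48.6 and 3.63 in early and 52.4 and 103 in late. Late against control was 2.28 (SE 0.62, adjusted p = 0.98) over 6 pools, and 2.28 to 3.00 without control 1, early 2 or late 1. In Pvalb interneurons late against control was 1.06 (adjusted p = 0.41) over 6 pools, and 1.07 to 1.66 without control 2, early 1, early 2 or late 2. In these fits 1 stage had a single pool. The fits without the other pools are not given, so the ranges do not show how far the values depend on 1 pool. Several contrasts passed the threshold in them, Penk in neuroblasts, endothelial cells, microglia and fibroblasts among them, and nothing is read from those calls.

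The 2 striatal calls were both for Penk in macrophages, a class of 265 cells. The UMIs were 5 and 0 in control, 38 and 31 in early and 4 and 0 in late, with 31 to 66 cells in each pool. A single cell held 36 of the 38 and another 29 of the 31 UMIs. The summed level of 9 spiny neuron markers moved with them, at 219 and 61.2 CPM in control, 839 and 1253 in early and 335 and 275 in late macrophages, and all 9 markers were detected in both early pools; their part in the result was not tested. The test called early against control higher and late against early lower. Penk passed the filter through the 2 early pools alone, so no fold is given. The first call was lost without the kit covariate (adjusted p = 0.083) and with control 2 left out, and neither contrast was testable at 50 cells per pool.

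Across both regions the 5 pathway lists gave no call in any stage contrast: 0 of 369 tests in each cortical contrast and 0 of 312 in each striatal contrast.

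The 2 hemispheres of the 4 trained pools of each region were compared within pools, since the task uses 1 forelimb. Of 41 member and class pairs that passed the filter, 2 were called and 9 had an unadjusted p under 0.05, while 0.0200% of all genes were called over 29 class and region pairs. Penk in cortical Vip interneurons was lower on the contralateral side, at 291 against 550 CPM in late 1, 112 against 210 in early 2 and 176 against 268 in late 2, with 291 against 269 the other way in early 1 (log2 fold change -0.53, SE 0.11, adjusted p = 0.048). It was not called without late 1 (-0.33, adjusted p = 1.0) or early 2 (-0.45, adjusted p = 0.16).

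Pdyn in D2 cells was higher on the contralateral side in 4 of 4 pools, from few UMIs: 40 against 18 in late 1, 19 against 5 in early 1, 23 against 2 in early 2 and 7 against 2 in late 2. In CPM this was 10.5 against 5.03, 3.26 against 1.12, 5.68 against 0.460 and 1.74 against 0.464 (1.63, SE 0.31, adjusted p = 0.00102). It was not called without early 2 (1.26, adjusted p = 0.25) or by DESeq2 (1.84, adjusted p = 1.0). The 5 pathway lists gave 0 calls in 510 tests.

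In all, 10 cell classes were named in both regions, and cortex was tested against striatum in them, with stage and kit class as covariates. Of 11 member and class pairs that passed the filter, 9 were called, beside 11.2% of all genes. Some passed through 1 region alone, so nothing is read from this count. Pnoc in Pvalb interneurons and Pdyn in Sst interneurons were called higher in cortex, and both were low in striatum, so no fold is given. Pnoc in Pvalb interneurons was 81.8, 292 and 349 CPM in cortex and 1.76, 4.62 and 13.4 in striatum. Pdyn in Sst interneurons was 83.5, 223 and 327 CPM in cortex and 2.74, 9.49 and 12.2 in striatum. Neither pair of ranges overlapped. Of the 2 cortical Pvalb clusters, only cluster 15 was far above the striatal range of Pnoc, with 546 CPM, while cluster 10 had 17.3 CPM.

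Sst interneurons also had more Penk in cortex (0.82, SE 0.17, adjusted p = 0.000421), at 74.9, 107 and 157 against 31.1, 50.3 and 84.5 CPM. The striatal values lay within the range of striatal microglia (18.6 to 345 CPM), which is not read as expression. Pnoc in Sst interneurons was higher in cortex too (0.73, SE 0.23, adjusted p = 0.0197), a call lost without any 1 of 4 pools (control 2 and early 1 of either region, adjusted p = 0.050 to 0.13). Oprl1 in them did not differ beyond its error (-0.15, SE 0.16, adjusted p = 0.53), nor in oligodendrocyte precursors (-0.13, SE 0.17, adjusted p = 0.90).

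In Pvalb interneurons Penk was lower in cortex (-1.19, SE 0.35, adjusted p = 0.015) over 12 pools, but by 0.35 on the log2 scale with adjusted p = 0.58 in the 8 pools of kit class 2, where it was not called. The striatal Pvalb levels of Penk lay within the range of striatal microglia (18.6 to 345 CPM), which is not read as expression. The part of free RNA in this difference was not tested. Without striatal late 1, where it was 249 CPM, the difference was -0.67 (adjusted p = 0.18), and it was not called without cortical late 1 (-0.55, adjusted p = 0.28) or control 2 (adjusted p = 0.058) either. The call for Oprl1 in the same class (0.74, SE 0.27, adjusted p = 0.050) was lost without any 1 of 6 pools: control 1, control 2 and late 2 of each region, with log2 fold changes of 0.43 to 0.73.

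Penk in astrocytes, microglia and oligodendrocyte precursors was called lower in cortex, where it had 8, 20 and 23 UMIs in all. It passed the filter there through the striatal pools, so no fold is given. Striatal astrocytes read 15.4, 25.8 and 80.7 CPM, microglia 18.6, 31.0 and 345 and precursors 9.44, 21.8 and 57.1, against cortical medians of 0, 0.987 and 1.73. The share of cells with a Penk UMI in striatal microglia was 3.48% to 8.78%. The summed 9 spiny neuron markers in microglia were 97.4, 111 and 728 CPM in striatum and 6.63, 10.3 and 17.9 in cortex. In astrocytes they overlapped, at 237, 302 and 482 against 261, 319 and 631, and in precursors they were 381, 497 and 527 against 537, 667 and 792. Penk was highest in late 1 for astrocytes and microglia, the pool with the highest D2 level; the part of free or attached neuronal RNA was not tested.

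The lists that surround the opioid genes had 148 tests in these classes, of which 31 were called, 14 higher and 17 lower in cortex, beside 11.2% of all genes called.

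Finally, cells with a UMI of the reporter transcript were compared with those without, within pools. Among cortical glutamatergic neurons (3399 positive and 14141 negative cells), 8.46% of all genes were called. Oprk1 was 8.22, 12.7 and 18.6 CPM in positive cells and 6.65, 9.24 and 11.4 in negative cells, higher in 6 of 6 pools (0.51, SE 0.09, adjusted p = 2.07e-05). Penk was 24.4, 33.7 and 65.7 CPM against 22.3, 31.9 and 38.6, higher in 5 of 6 pools (0.29, SE 0.06, adjusted p = 0.000522). Positive cells held 11295 UMIs each against 7972, and with all cells thinned to 2000 UMIs neither was called (Oprk1 0.17, adjusted p = 0.95; Penk 0.21, adjusted p = 0.83). Among striatal spiny neurons (4026 and 17355 cells) none of 6 members was called by edgeR, 1 had an unadjusted p under 0.05, and 0.446% of all genes were called. Penk there was 2174, 2593 and 6712 CPM against 2404, 2469 and 5855 (0.04, SE 0.02, adjusted p = 0.64), higher in 5 of 6 pools, and it was called without early 1 (0.09, adjusted p = 0.00339).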

How the data were processed

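Single-cell RNA was measured in 24 libraries (10x 3' chemistry), of which 1, the right hemisphere of dorsal striatum control 1, was not analysed here. The deposited values were UMI counts per gene and cell made with Cell Ranger 3.1.0 on GRCm38/mm10, per the submitters' processing notes. Cells needed 500 genes and 1000 UMIs, and those above 20% mitochondrial UMIs were dropped, as were 5103 presumed doublets. Cells were clustered within each region with scanpy 1.11.5 and leidenalg 0.10.2 (2000 variable genes, 40 components, 20 neighbours, resolutions 1.5 and 1, the 7 opioid genes left out) and named when at least 3 listed markers were found. The naming thresholds were set after the clusters had been seen.

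Counts were summed per pool and class (at least 20 cells) and tested with edgeR 4.0.16 quasi-likelihood fits across all genes (R 4.3.3), with Benjamini-Hochberg adjusted p under 0.05 as a call. DESeq2 1.42.0 was an alternative, as were other scalings, filters, cell thresholds, thinned cells and leaving out each pool. Stage and region fits had the kit class as a covariate, and fits within pools had the pool as a block. Each SE is the absolute log2 fold change divided by the square root of the test's F, on the log2 scale. It can fall below the counting error where 1 group holds few UMIs. On simulated counts for the Drd1 and Drd2 split, with an assumed spread not estimated from these pools, the test found 98% of genes changed by 1 on the log2 scale (14165 genes tested). P-values of the stage and region fits rest on the spread between pools of 2 mice. Those of the fits within pools rest on how far the difference within a pool varied from pool to pool. In both, edgeR moderates the spread across all genes. An SE or p-value can therefore be smaller than the pools of that gene alone would give. Intervals from counts cover counting error only. The depth of the libraries is given by their UMI totals.

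The 7 members and all gene lists were chosen with earlier results of these data known. All 7 are described in every class, and of each pathway list at most 3 genes with the smallest adjusted p are named per comparison. Sequences come from GENCODE vM21 transcripts.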

Additional observations from a re-analysis of the deposited data

Results flagged for a closer look

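The difference between spiny neurons with and without striosome markers was itself tested between Drd1-only and Drd2-only cells over 6 pools (edgeR, adjusted over all genes). It passed the threshold for 3 members, of which Oprm1 had passed the filter through the Drd1-only cells alone. For Penk the log2 fold change with markers was larger in Drd1-only cells by 2.71 (SE 0.10, adjusted p = 1.75e-46), with 6 of 6 pools higher in Drd1-only and 6 of 6 lower in Drd2-only cells. Within D1 and D2 clusters in place of receptor UMIs, chosen after seeing the data, the difference was 0.76 (adjusted p = 1.54e-05).

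For Oprm1 the fitted difference was 1.78 (SE 0.39, adjusted p = 0.00091), and 1.66 within clusters (adjusted p = 0.00441). It was higher with markers in 6 of 6 pools of Drd1-only cells and in 1 of 6 of Drd2-only cells, the latter with 30 UMIs in marker cells. Since Oprm1 was too low to test in Drd2-only cells by themselves, and too low in both with thinned cells, no difference between the receptor classes is read from it.

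For Oprk1 the difference was -0.58 (SE 0.15, adjusted p = 0.00745). It was lost within clusters (-0.44, adjusted p = 0.16) and with cells thinned to 2000 UMIs (-0.29, adjusted p = 0.99). The differences for Pdyn (-0.10, SE 0.47), Oprd1 (1.45, SE 0.71) and Oprl1 (-0.26, SE 0.25) were not called.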

How the results depend on the processing

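Of the member tests, the 6 calls of Drd1 against Drd2 cells held under each alternative in which they could be tested. No fold change of a called member changed sign, but single pools did, for Oprk1 with thinned cells and for Oprm1 with thinned cells or clusters. Without the filter on low counts, members called went from 0 to 1 in cortical stages, from 2 to 11 in striatal stages and from 9 to 19 between regions. Striatal stage calls were 1 without the kit covariate, 1 with the stricter cell filter and 0 at 50 cells per pool. The hemisphere calls went from 2 to 1 with RLE factors, 0 with DESeq2 and 0 with stage and kit in place of the pool block. The 12 striosome calls became 6 of 9 tested with thinned cells. Within clusters, run for the Drd1-only and Drd2-only sets alone, 4 of 9 tested were called, and of the main calls in these sets 4 held and 2 were lost. The 2 reporter calls became 1 with DESeq2 and 0 with thinned cells. With each pool left out in turn, calls ranged from 0 to 4 in cortical stages, 6 to 10 in striatal stages, 1 to 3 between hemispheres, 7 to 10 between regions, 11 to 12 for striosome markers and 2 to 3 for the reporter. A stage with 1 pool left is assumed to vary like the others. Without a control or late pool, the stage and kit terms fit the control and late pools exactly. Only the 2 early pools then show any spread, so nothing is read from the added stage calls. Replicate numbers follow accession order and pair no samples; with the replicate block in place of the kit, 0 cortical and 2 striatal stage calls were made. In the stage fits Oprm1, Oprd1, Oprk1, striatal Pnoc and cortical Pdyn each passed the filter in at most 2 classes of a region, and the part of depth in this was not tested.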

Other observations

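The genes whose levels ran most like each member across 41 classes of both regions are given by Pearson's r over class means of log2(CPM + 1), a description over classes that share libraries. For Penk they were Actn2 (0.75), Rasd2 (0.75) and Rgs9 (0.74), and for Pdyn Gm32647 (0.77), Gpr101 (0.70) and Fndc1 (0.69). For Pnoc they were Ankrd55 (0.89), Akain1 (0.88) and Ldoc1 (0.87). For Oprm1 they were Lin28b (0.88), Tekt5 (0.86) and A230006K03Rik (0.86), for Oprk1 Wnt2 (0.84), Krt9 (0.83) and Spink8 (0.80), and for Oprl1 Clvs2 (0.93), Gm47163 (0.92) and Tenm1 (0.92).

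The gene most like Oprd1 was Gm37711 (0.97), annotated at chr4:132104830-132109363 on the same strand, 1362 bases beyond the end of Oprd1, followed by Cartpt (0.75) and Gm48992 (0.74). Among the members themselves the highest values were Oprm1 with Oprk1 (0.66) and with Oprl1 (0.65), and Oprk1 with Penk (0.61).

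With cells of all pools thinned to 2000 UMIs, D1 cells with a Pdyn UMI had a Penk UMI about as often as those without (9.46% and 8.66%). Cortical Vip cells with a Penk UMI had Pnoc in 34.7%, and those without in 41.6%.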
